A study of Mus musculus with 6 samples.

Results

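The transcripts described here are those of the mitochondrial genome, taken as all genes whose symbol starts with mt-. There were 37 of them among 55341 genes, namely 13 mRNAs, 2 ribosomal RNAs (rRNAs) and 22 transfer RNAs (tRNAs). They were counted in 6 olfactory sensory neurons, the odour-detecting nerve cells of the nasal epithelium, from wild type C57BL/6 mice aged 6 weeks. Each neuron was frozen after a physiological recording and sequenced by CEL-Seq2 as a library of its own, and the neurons are numbered here from cell 1 to cell 6. The labels put all cells in 1 group and name no animals, treatment or recorded response, so no replicate test between cells is possible and no p-value is given. Errors are exact 95% intervals of counting only, Poisson for levels and Clopper-Pearson for shares.

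The mitochondrial genome is a small circle of DNA that encodes core subunits of the respiratory chain, together with the rRNAs and tRNAs needed to translate them inside the organelle. Nearly the whole of each strand is copied as a long precursor, and tRNAs lying between the other genes are cut out to release the mature RNAs, a scheme known as tRNA punctuation. Mature mitochondrial mRNAs carry short poly(A) tails, and the rRNAs carry shorter ones. The olfactory neuron spends much ATP on ion pumping during odour signalling, which its mitochondria and glycolysis are known to supply. CEL-Seq2 primes RNA at poly(A), adds a molecular identifier and reads near the 3' end, so RNAs without a tail are poorly captured.

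Cells 1 to 6 had totals of 8613, 34478, 122546, 60902, 22525 and 11725 counts. At an equal depth of 8613 counts the expected number of detected genes was 2468 in cell 6 and between 3058 and 4015 in the other cells. The mature olfactory neuron list was found in all cells, with 6 of its 10 genes counted in cell 6 and 10 of 10 elsewhere, and its summed level lay between 16471 and 31360 CPM, counts scaled to a common total per cell. Gland and secretory markers (5 of 6 genes found, Dcpp1 at 0) summed to 6850.1, 20390 and 5105 CPM in cells 1, 2 and 5, and to 947, 624 and 0 CPM in cells 3, 4 and 6. Red blood cell markers (4 of 5 found, Alas2 at 0) were lowest in cell 6 with 171 CPM and highest in cell 4 with 12610.4 CPM. Sustentacular cell markers (4 of 5, Cyp1a2 at 0) ran from 85.3 to 841 CPM and immature neuron markers (3 of 4, Gng8 at 0) from 0 to 1535 CPM. The horizontal basal cell list had no count in any cell, and the immune list had 1 count.

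Of the 37 genes, 25 had at least 1 count in any cell, against 29.8% of all genes, and 15 had counts in all 6 cells, against 1.5% of all genes. The 15 were 12 of the 13 mRNAs, both rRNAs and 1 tRNA, mt-Td. The rRNA gene mt-Rnr2 had the most counts of all genes in cells 1, 2 and 5, and the subunit gene mt-Nd4 had the most in cells 3 and 6. Between 3 and 7 of the 10 genes with most counts in a cell were mitochondrial.

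Summed over the 37 genes, mitochondrial transcripts took 14.4% of the counts in cell 1 (1244 counts, 13.7% to 15.2%), 11.7% in cell 2 (4024 counts, 11.3% to 12.01%) and 6.47% in cell 3 (7926 counts, 6.33% to 6.61%). In cells 4, 5 and 6 they took 4.40% (2679 counts, 4.24% to 4.56%), 7.62% (1717 counts, 7.28% to 7.98%) and 12.3% (1447 counts, 11.8% to 12.95%). The share was highest in cells 1 and 6, the libraries with the fewest counts, and lowest in cells 4 and 3, those with the most. Between them, cell 5 had fewer counts than cell 2 and also the lower share, and the part of depth in the share was not tested. The mRNAs and the rRNAs did not follow the total in the same way, since cells 1 and 6 had the 2 highest totals but the rRNAs made up 27.2% of it in cell 1 and 10.99% in cell 6.

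**Figure D1:**
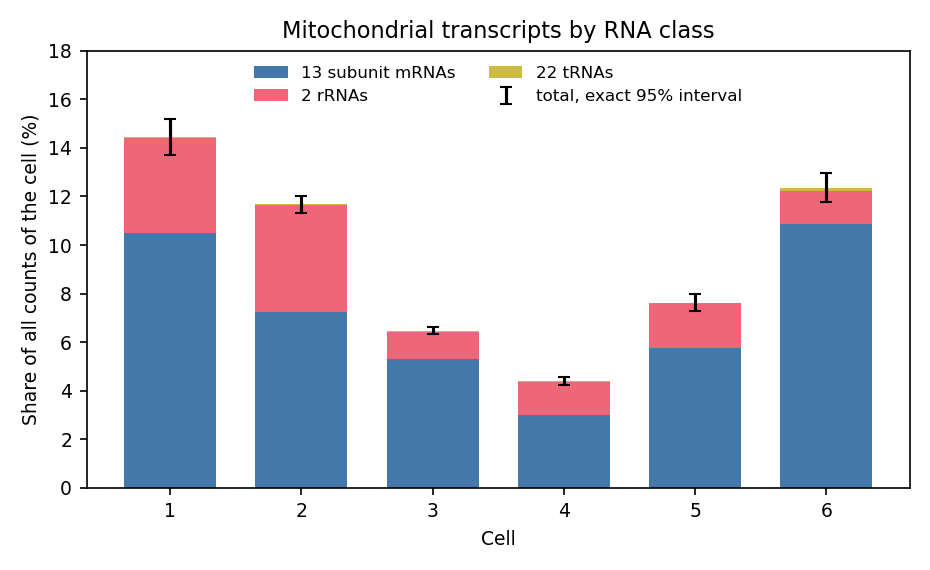
Share of each cell's counts (y axis, percent) taken by mitochondrial mRNAs, rRNAs and tRNAs, stacked by cell (x axis); bars on top are exact 95% intervals of the total. Cells 1 and 6 stand at 14.4% and 12.3%, cell 4 at 4.40%, and the rRNA layer is 3.92% and 4.40% of all counts in cells 1 and 2, 1.85% in cell 5, and 1.09% to 1.36% in cells 3, 4 and 6.

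The rRNAs form the core of the mitochondrial ribosome. Gene mt-Rnr2, which encodes the RNA of the large subunit, lies at 1094 to 2675 of the mitochondrial chromosome (GRCm38, plus strand) and is 1582 bases long. Gene mt-Rnr1, for the small subunit, lies at 70 to 1024 and is 955 bases long, and mt-Tv separates them. The counts of mt-Rnr2 in cells 1 to 6 were 303, 1253, 1095, 689, 352 and 117. Those of mt-Rnr1 were 35, 265, 244, 139, 64 and 42. As levels, mt-Rnr2 stood at 35179 and 36342 CPM in cells 1 and 2, at 15627 CPM in cell 5 and between 8935 and 11313 CPM in cells 3, 4 and 6. The level of mt-Rnr1 was 7686 CPM in cell 2 (6788 to 8669) and between 1991 and 4064 CPM in the other 5 cells. Cell 2 was thus high in both rRNAs. Cell 1 was close to it in mt-Rnr2 but lower in mt-Rnr1, where it was second highest at 4064 CPM (2830 to 5652) on 35 counts.

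Within the mitochondrial counts of a cell, the rRNAs took 27.2%, 37.7%, 16.9%, 30.9%, 24.2% and 10.99% in cells 1 to 6. The mRNAs took 72.7%, 62.1%, 82.1%, 68.6%, 75.6% and 88.1%. For each subunit mRNA count there were 0.607 rRNA counts in cell 2 (0.570 to 0.648) and 0.125 in cell 6 (0.105 to 0.147), a 4.87-fold range. The ratio was 0.374 in cell 1 (0.329 to 0.424), 0.450 in cell 4 (0.415 to 0.489), 0.320 in cell 5 (0.286 to 0.358) and 0.206 in cell 3 (0.194 to 0.218). Only cells 1 and 5 and, narrowly, cells 1 and 4 had intervals that overlapped. If each count is 1 molecule, the cells thus stood apart by more than counting error in most pairs. Cells 2 and 4 were high at depths of 34478 and 60902 counts, while cell 3 was low at 122546 and cell 6 at 11725. Gland markers were highest in cell 2 (20390 CPM) and lowest in cell 6 (0 CPM), but cell 4, with the second highest ratio, had the second lowest sum of them (624 CPM). The parts of depth and of other cells' RNA in the ratio were not tested.

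The ratio of large to small rRNA counts was more even, at 4.73 in cell 2 (4.14 to 5.42), 4.49 in cell 3 (3.90 to 5.18), 4.96 in cell 4 (4.13 to 5.99) and 5.50 in cell 5 (4.20 to 7.30). It was 8.66 in cell 1 (6.09 to 12.7) and 2.79 in cell 6 (1.94 to 4.06). The intervals of cells 2 to 5 overlapped, and those of cells 1 and 6 did not overlap each other. Cells 1 and 6 rest on 35 and 42 counts of mt-Rnr1.

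**Figure D2:**
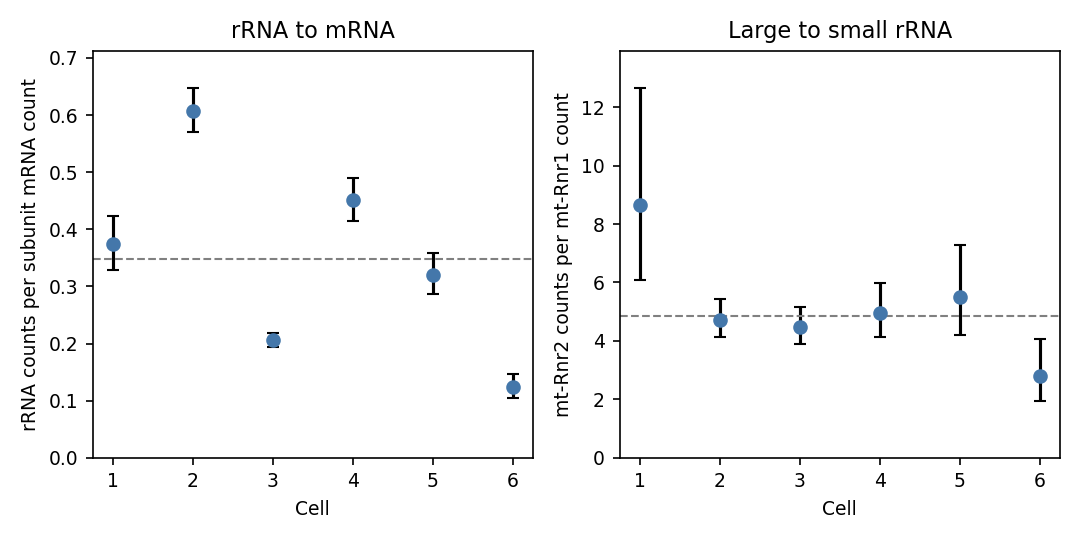
Left, rRNA counts per subunit mRNA count, and right, mt-Rnr2 counts per mt-Rnr1 count (y axes, linear), in each cell (x axis); points are cells, bars are exact 95% intervals and the dashed line is the median. The left ratio runs from 0.125 in cell 6 to 0.607 in cell 2, and on the right cells 2 to 5 lie between 4.49 and 5.50.

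The 13 mRNAs encode 7 subunits of complex I (NADH dehydrogenase), 1 of complex III (cytochrome b), 3 of complex IV (cytochrome c oxidase) and 2 of complex V (ATP synthase). Their annotated 3' ends differ in how much of the stop codon the gene itself encodes. In 10 of the 13 the gene ends on a complete stop codon, and in 3 it ends on the T that begins one, which polyadenylation is known to extend to TAA. The last 30 bases of these 3, with those of mt-Co1 for comparison, are given 5' to 3' with the stop, complete or begun, in capitals (GENCODE M21 sequence, GRCm38, plus strand).
mt-Co3, chrM:9361-9390: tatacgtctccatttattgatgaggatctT
mt-Nd4, chrM:11515-11544: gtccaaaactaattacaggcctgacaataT
mt-Cytb, chrM:15259-15288: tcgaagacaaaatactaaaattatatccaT
mt-Co1, chrM:6843-6872: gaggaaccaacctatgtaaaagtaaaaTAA
With 1 exception, the mRNAs lie on the plus strand, and they share a low G and C content of 31.9% to 41.1%.

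Gene mt-Nd4, a proton-pumping subunit of complex I, had the most counts of all mRNAs in 5 of 6 cells. Its counts in cells 1 to 6 were 125, 419, 1299, 372, 191 and 229, or 13.8%, 16.8%, 19.97%, 20.2%, 14.7% and 17.96% of the subunit mRNA counts. In these deposited counts cells 3, 4 and 6 were the 3 highest. The intervals of cells 3 (19% to 20.96%) and 4 (18.4% to 22.2%) lay above those of cells 1 (11.6% to 16.3%) and 5 (12.8% to 16.8%). Divided by gene length, mt-Atp6 came before mt-Nd4 in the median cell, with 19.0% of counts per kilobase against 11.5%, and mt-Co2 held 14.2%. A 3' method counts ends rather than length, so both orders are given and neither is taken as the order of molecules.

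Among the other complex I subunits, mt-Nd1 (78, 227, 628, 188, 160 and 118 counts in cells 1 to 6) and mt-Nd2 (75, 216, 718, 189, 105 and 159 counts) took medians of 9.45% and 9.46% of mRNA counts. Shares of mt-Nd1 lay between 8.63% and 10.2% in 5 cells and at 12.3% in cell 5 (10.6% to 14.2%). Those of mt-Nd2 were 8.30%, 8.64% and 8.09% in cells 1, 2 and 5, and 11.04%, 10.3% and 12.5% in cells 3, 4 and 6. Cell 6 (10.7% to 14.4%) stood above cell 1 (6.58% to 10.29%), cell 2 (7.57% to 9.81%) and cell 5 (6.66% to 9.71%) for mt-Nd2, and its interval met those of cells 3 and 4.

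The antiporter-like subunit mt-Nd5 has the longest gene, with 1824 bases, and few counts, with 33, 114, 135, 42, 28 and 23 in cells 1 to 6. It took 4.56% of mRNA counts in cell 2 (3.78% to 5.45%) and 3.65% in cell 1 (2.53% to 5.09%), against 1.80% to 2.29% in the other 4 cells. For each mt-Nd4 count there were 0.264 mt-Nd5 counts in cell 1 (0.174 to 0.390) and 0.272 in cell 2 (0.219 to 0.335), against 0.104 in cell 3 (0.0864 to 0.124) and 0.100 in cell 6 (0.0624 to 0.154). Cells 1 and 2 were the 2 highest in this ratio, and cells 4 and 5 lay at 0.113 and 0.147.

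The small subunits mt-Nd3 and mt-Nd4l had far fewer counts. Gene mt-Nd3 was counted 16, 57, 87, 34, 21 and 40 times, with its highest share, 3.14% (2.25% to 4.25%), in cell 6 and its lowest, 1.34% (1.07% to 1.65%), in cell 3. Gene mt-Nd4l, which overlaps mt-Nd4 by 7 bases and is known to be translated from a joint mRNA with it, was counted 1, 14, 13, 7, 3 and 10 times. A 3' method reads a joint mRNA at the end of mt-Nd4, and in each cell mt-Nd4l had at most 0.0437 counts for each mt-Nd4 count.

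The remaining complex I gene, mt-Nd6, is the only subunit mRNA on the minus strand, at 13552 to 14070 of the mitochondrial chromosome, where it overlaps mt-Nd5 by 14 bases. It had 2 counts in cell 3 (16.3 CPM) and 0 in the other 5 cells. A count of 0 allows, at 3 counts, up to 348, 87.0, 49.3, 133 and 256 CPM in cells 1, 2, 4, 5 and 6. In human cells this mRNA is known to lack a poly(A) tail, and its low count here gives no measure of its abundance. The 8 tRNAs of the same strand had 7 counts in all.

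Complex I as a whole took 36.3% of subunit mRNA counts in cell 1 (33.1% to 39.5%), 41.9% in cell 2, 44.3% in cell 3, 45.3% in cell 4, 39.1% in cell 5 and 45.4% in cell 6 (42.7% to 48.2%). In the deposited counts cells 3, 4 and 6 were the 3 highest and their intervals overlapped. The interval of cell 1 lay below all of these and narrowly below that of cell 2 (39.95% to 43.9%).

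Cytochrome b, the product of mt-Cytb and the only mitochondrial subunit of complex III, was counted 130, 380, 812, 209, 172 and 202 times. Its share of mRNA counts was 15.8% in cell 6 (13.9% to 17.96%), 15.2% in cell 2 (13.8% to 16.7%), 14.4% in cell 1 and 13.3% in cell 5. It was 12.5% in cell 3 (11.7% to 13.3%) and 11.4% in cell 4 (9.96% to 12.9%). The intervals of cells 2 and 6 lay above those of cells 3 and 4, and those of cells 1 and 5 overlapped both pairs.

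The complex IV genes encode the catalytic core of cytochrome c oxidase. Counts of mt-Co1 in cells 1 to 6 were 143, 328, 825, 174, 188 and 129, those of mt-Co2 were 127, 279, 622, 169, 175 and 104, and those of mt-Co3 were 52, 159, 462, 157, 69 and 74. Cells 1 and 5 were the 2 highest for mt-Co1 (15.8% and 14.5% of mRNA counts) and for mt-Co2 (14.0% and 13.5%). Cells 4 and 6 were the 2 lowest, with 9.47% and 10.1% for mt-Co1 and 9.19% and 8.16% for mt-Co2. For mt-Co3 the order differed, with cell 4 highest at 8.54% (7.30% to 9.91%) and cell 5 lowest at 5.32% (4.16% to 6.68%). Each mt-Co1 count was matched by 0.902 mt-Co3 counts in cell 4 (0.723 to 1.13) and by 0.364 in cell 1 (0.259 to 0.503), both being mRNAs of the same enzyme. Summed, complex IV ran from 24.1% in cell 6 (21.8% to 26.5%) and 27.2% in cell 4 (25.2% to 29.3%) to 33.3% in cell 5 (30.7% to 35.9%) and 35.6% in cell 1 (32.5% to 38.8%), with cells 2 and 3 between them at 30.7% and 29.3%.

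Of the complex V genes, mt-Atp6 encodes the subunit that lines the proton path, and mt-Atp8 a small partner read from the same mRNA in an overlapping frame, with 43 shared bases. Counts of mt-Atp6 were 117, 281, 874, 287, 184 and 183, or 12.9%, 11.2%, 13.4%, 15.6%, 14.2% and 14.4% of mRNA counts. Cell 4 (14.0% to 17.4%) lay above cell 2 (10.03% to 12.5%), and the other 4 cells overlapped cell 4. Counts of mt-Atp8 were 7, 25, 29, 10, 2 and 4. For each mt-Atp6 count there were 0.0890 mt-Atp8 counts in cell 2 (0.0566 to 0.134), above the 0.0332 of cell 3 (0.0221 to 0.0480) and the 0.0109 of cell 5 (0.00131 to 0.0398). Summed, complex V ranged from 12.2% in cell 2 to 16.2% in cell 4.

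**Figure D3:**
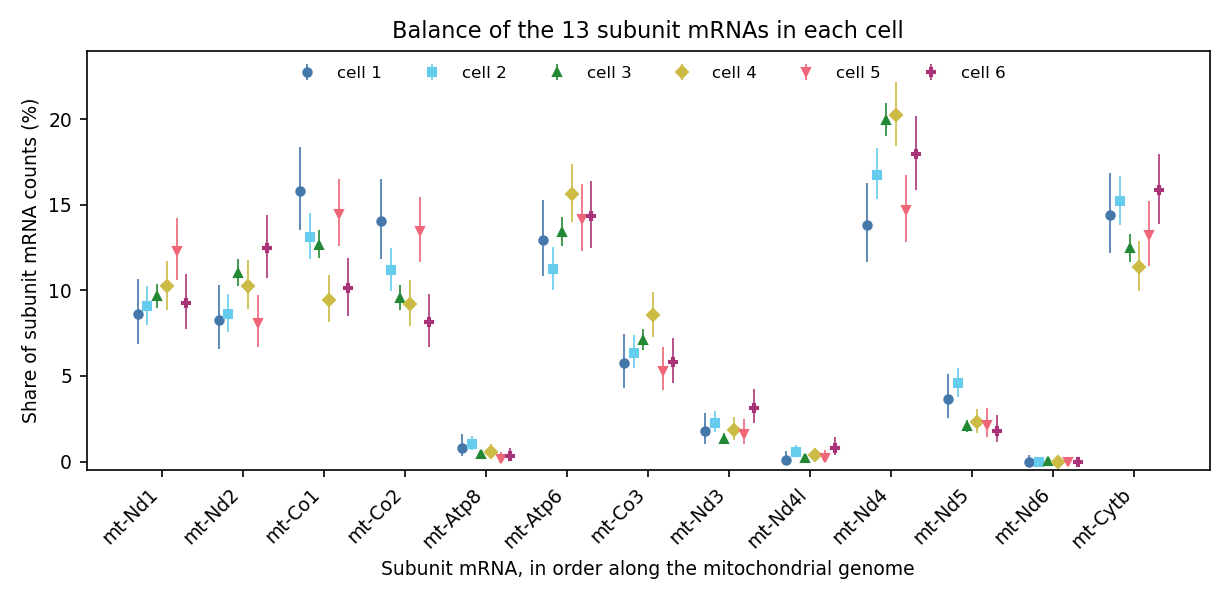
Share of a cell's subunit mRNA counts (y axis, percent) taken by each of the 13 mRNAs, in order along the mitochondrial genome (x axis); colours and symbols are cells, and bars are exact 95% intervals. Gene mt-Nd4 ranges from 13.8% in cell 1 to 20.2% in cell 4, mt-Co1 runs the other way from 15.8% to 9.47%, and mt-Nd6 lies at or near 0.

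The tRNAs, which are known to end in CCA and not in poly(A), had 119 counts over all cells, and 101 of these were of 1 gene, mt-Td. Of the 22 tRNAs, 12 had no count in any cell, 9 had 1 to 9 counts and 7 had exactly 1. Gene mt-Td, for the aspartate tRNA, lies at 6942 to 7011 just before mt-Co2 and has the lowest G and C content of the 37 genes, 17.1%. Its sequence on the plus strand is printed because this gene holds most of the tRNA counts.
mt-Td, chrM:6942-7011: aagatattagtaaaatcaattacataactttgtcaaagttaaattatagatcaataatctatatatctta
It had 76 counts in cell 3 (620 CPM, 489 to 776) and 11 in cell 6 (938 CPM, 468 to 1679), against 1, 4, 6 and 3 in cells 1, 2, 4 and 5. The level was highest in cells 3 and 6, and the other 4 cells lay between 98.5 and 133 CPM. Those 4 rest on 1 to 6 counts, and the interval of cell 1 (2.94 to 647 CPM) overlapped those of cells 3 and 6. For each count of its neighbour mt-Co2 there were 0.122 mt-Td counts in cell 3 (0.0950 to 0.155) and 0.106 in cell 6 (0.0512 to 0.197), against 0.0143 in cell 2 (0.00388 to 0.0371) and 0.0355 in cell 4 (0.0128 to 0.0789). In cells 1 and 5 the ratio was 0.00787 (0.000198 to 0.0447) and 0.0171 (0.00350 to 0.0509). The intervals of cells 4 and 6 overlapped. Cells 3 and 6 were also the 2 lowest in rRNA share. After mt-Td came mt-Tm with 7 counts (3 in cell 2 and 4 in cell 4) and mt-Ts1 with 4, which are named beyond the rule for tRNAs and after their values were seen.

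Part of the mitochondrial genome exists as near-identical nuclear DNA, and this bears on the counts of several subunit mRNAs. Among annotated nuclear transcripts, 15 shared an exact stretch of at least 50 bases with a mitochondrial gene. A run of 7 pseudogenes on chromosome 1 (24611535 to 24616197 in GRCm38, minus strand, 4663 bases) repeats, in the order of the mitochondrial genome, the 3' part of mt-Co1, then mt-Co2, mt-Atp6, mt-Co3, mt-Nd3, mt-Nd4l and the 5' part of mt-Nd4. Its identity with the mitochondrial genes was 99.7% to 100%. A second group on chromosome 2 holds more divergent copies of mt-Nd2, mt-Co1 and mt-Co2, with 95.9% to 97.6% identity. The last 60 bases of mt-Co1 and of its copies on chromosomes 1 and 2 are shown 5' to 3', with capitals at the base where the copy on chromosome 2 differs.
mt-Co1, chrM:6813-6872: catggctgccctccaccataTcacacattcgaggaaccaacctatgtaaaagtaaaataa
Gm29216 (chromosome 1): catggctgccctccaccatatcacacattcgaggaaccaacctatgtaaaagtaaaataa
Gm13340 (chromosome 2): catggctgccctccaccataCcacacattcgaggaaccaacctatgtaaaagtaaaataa
The mitochondrial and the chromosome 1 sequence are the same over this stretch, so a read from it cannot be assigned to either by sequence.

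Of the 7 copies on chromosome 1, 6 had counts close to those of the mitochondrial genes they repeat. Gm10925, the copy of mt-Atp6, had 128, 306, 893, 280, 177 and 201 counts in cells 1 to 6, beside 117, 281, 874, 287, 184 and 183 of mt-Atp6. The ratio of copy to mitochondrial gene lay between 0.962 and 1.098 for Gm10925, between 0.874 and 1.04 for Gm28661 (mt-Co2) and between 0.987 and 1.26 for Gm28437 (mt-Co3). For these copies, for Gm28438 (mt-Nd3) and for Gm10222 (mt-Nd4l, with 58 counts in all and named as part of the run), the interval of the ratio held 1 in 6 of 6 cells. For Gm29216, the copy of mt-Co1, it did so in 5 of 6, the exception being cell 2 with 0.808 (0.685 to 0.953).

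The remaining copy on chromosome 1, Gm28439, leaves out the 3' end of its gene, and its counts were far lower. Gm28439 repeats the first 876 bases of mt-Nd4 without a mismatch and stops 502 bases before its 3' end. It had 23, 82, 94, 23, 40 and 28 counts, or between 0.0618 and 0.209 for each mt-Nd4 count. The ratio was 0.184, 0.196 and 0.209 in cells 1, 2 and 5, and 0.0724, 0.0618 and 0.122 in cells 3, 4 and 6. The copies on chromosome 2 lay between these extremes. Gm13340 had 0.282 to 0.729 counts for each mt-Co1 count, Gm13341 had 0.380 to 0.736 for each mt-Co2 count and Gm13339 had 0.418 to 0.641 for each mt-Nd2 count. The ratio of Gm13340 was 0.329, 0.375 and 0.282 in cells 1, 2 and 5, and 0.672, 0.632 and 0.729 in cells 3, 4 and 6. In cells 3 (0.602 to 0.749), 4 (0.4933 to 0.807) and 6 (0.553 to 0.958) its interval lay above those of cells 1, 2 and 5. The ratio of Gm13339 did not split in this way, with 0.573, 0.444 and 0.638 in cells 1, 2 and 5, and 0.641, 0.418 and 0.635 in cells 3, 4 and 6. Of the other copies, AC124578.3 on chromosome 18 had 337 counts over all cells, between 0.107 and 0.235 for each mt-Atp6 count.

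**Figure D4:**
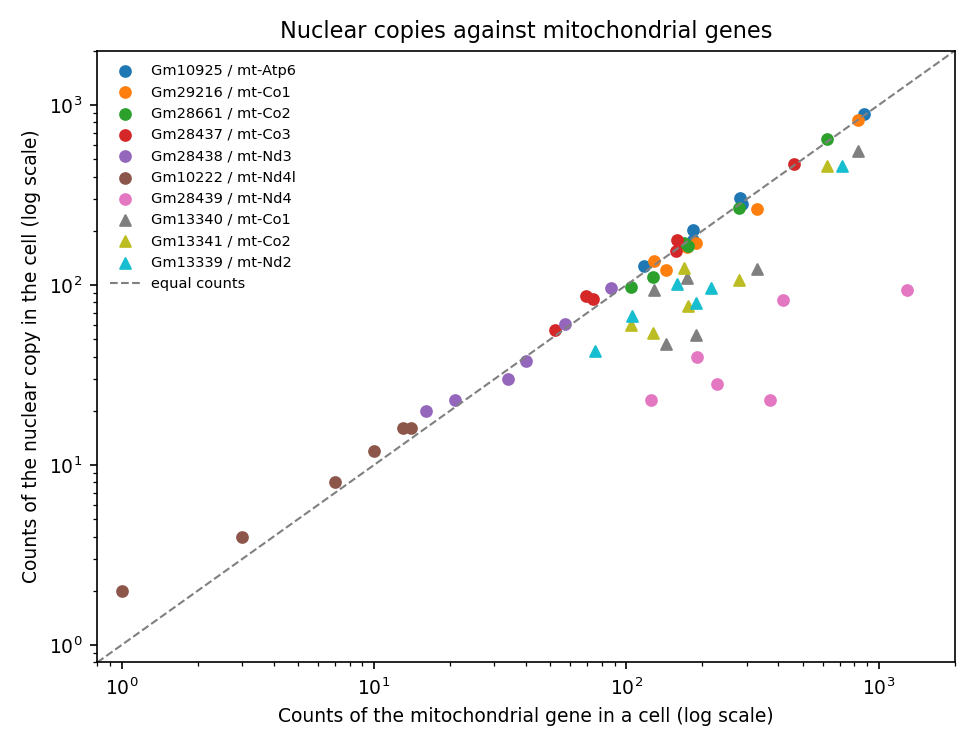
Counts of a nuclear copy (y axis, log scale) against counts of the mitochondrial gene it matches (x axis, log scale), 1 point per cell and pair; circles are copies on chromosome 1, triangles copies on chromosome 2, and the dashed line marks equal counts. Of the copies on chromosome 1, 6 lie along the line, with a ratio of 1.03 over all cells for Gm10925 and mt-Atp6, while Gm28439 and the copies on chromosome 2 lie below it.

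In all, the 15 copies had 50.9, 38.6, 60.3, 45.5, 51.7 and 62.3 counts for every 100 mitochondrial counts in cells 1 to 6, of which the chromosome 1 run gave 37.1, 29.2, 38.4, 30.9, 38.8 and 41.2. Whether these counts come from mitochondrial RNA or from the nuclear copies was not tested. When each copy was added to the gene it matches, the mitochondrial share was 21.8%, 16.2%, 10.4%, 6.402%, 11.6% and 20.03%, with the same order of cells. The balance of the subunits changed more. Complex IV went from a median of 29.997% to 42.7% of mRNA counts and complex V from 14.1% to 17.5%, while complex I went from 43.1% to 32.3% and complex III from 13.8% to 8.17%. With copies added mt-Nd4 led in no cell, mt-Co1 led in 3, mt-Atp6 in 2 and mt-Co2 in 1. The share of mt-Nd4 then lay between 9.64% and 12.9% of mRNA counts, against 13.8% to 20.2% in the deposited counts. As in the deposited counts, complex IV was lowest in cell 6 (35.7%) and highest in cell 1 (46.4%), and complex I lowest in cell 1 (27.8%) and highest in cell 6 (35.2%). Other places changed. For complex I, cell 2 (32.7%) then lay above cell 3 (31.9%), and for complex III, cell 2 (9.38%) above cell 6 (9.28%). For complex IV, cells 2 and 3 changed places, and for complex V, cells 3 and 5. The ratio of rRNA to mRNA counts was 0.0730 in cell 6 and 0.375 in cell 2, with the same order of cells.

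**Figure D5:**
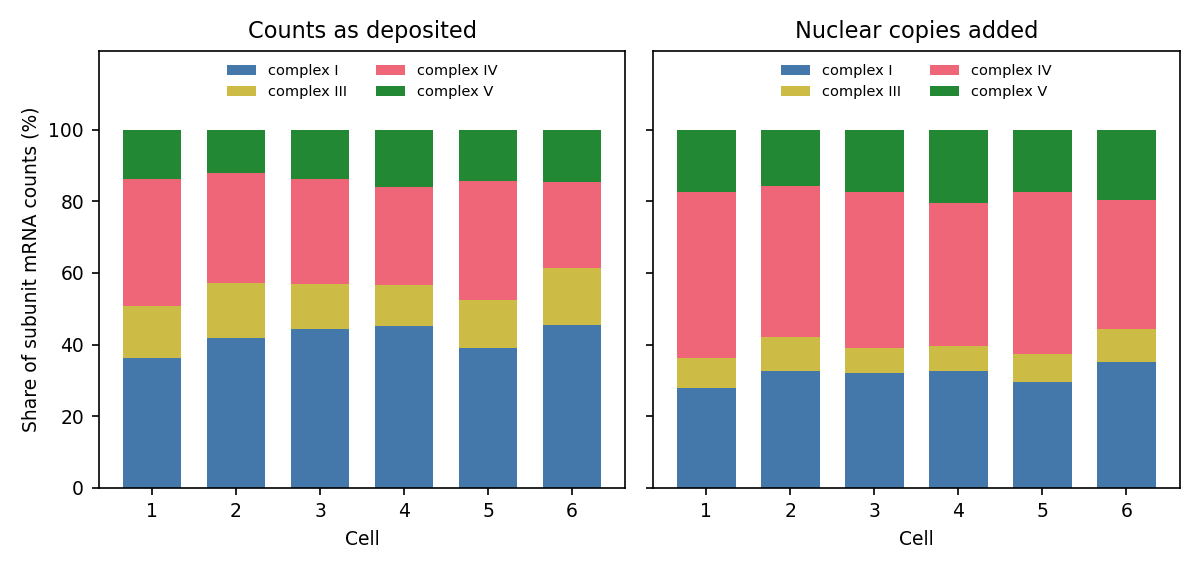
Share of subunit mRNA counts (y axis, percent) by respiratory complex in each cell (x axis), from the deposited counts on the left and with the nuclear copies added on the right. Complex IV covers 24.1% to 35.6% on the left and 35.7% to 46.4% on the right, with cell 1 highest and cell 6 lowest in both.

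Set against the pooled level of the other 5 cells, a pool that cell 3 dominates wherever it is part of it, the mRNAs and rRNAs past 2-fold differed from cell to cell. Of the 14 mRNAs and rRNAs with a mean of at least 10 CPM (all but mt-Nd6), 6 were higher in cell 1 and none lower, against 16.5% and 69.9% of 9760 genes. The 6 were mt-Co1 (ratio 2.55, 2.13 to 3.02), mt-Co2 (2.76, 2.28 to 3.31), mt-Atp8, mt-Nd5, mt-Cytb and mt-Rnr2. In cell 2, 5 were higher and none lower, against 17.5% and 47.6% of genes, with mt-Rnr1 at 3.32 (2.85 to 3.86), mt-Rnr2 at 3.22 (3.01 to 3.44), and mt-Atp8, mt-Nd4l and mt-Nd5 between 2.70 and 3.16. In cell 6, 6 were higher and none lower, against 17.2% and 72.3% of genes. They were mt-Nd4l (5.59, 2.48 to 11.4), mt-Nd3 (3.95, 2.75 to 5.56), mt-Nd2, mt-Cytb, mt-Atp6 and mt-Nd4, and neither rRNA was among them. Some calls lay close to the threshold, as mt-Nd4 had a ratio of 2.02 in cell 6, and mt-Nd3 and mt-Atp6 had 1.96 and 1.89 in cell 1.

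Cell 4 was the converse, with 6 lower and none higher, against 37.2% and 26.1% of genes, so that the lower share by fold alone was near that of all genes. Its lowest were mt-Co1 (ratio 0.354, 0.301 to 0.414), mt-Cytb (0.404, 0.349 to 0.467), mt-Nd5 (0.414) and mt-Co2 (0.424). In cell 3, mt-Rnr2 (0.455, 0.424 to 0.488) and mt-Nd4l (0.419) were lower and none higher, against 34.7% and 20.8% of genes. In cell 5, mt-Atp8 alone was lower (0.282, 0.0335 to 1.06) and none higher, against 45.9% and 25% of genes. With the further condition that the interval leaves out 1, the numbers were the same in 5 cells, and in cell 5 mt-Atp8 dropped out. Under that condition the shares of all genes in cells 1 to 6 were 2%, 3.7%, 10.1%, 12.2%, 6.19% and 5.83% for higher and 0.41%, 3.63%, 10.1%, 6.9%, 1.25% and 0.84% for lower. The 6 higher in cell 1, the 5 in cell 2 and the 6 in cell 6 thus stand beside a few percent of all genes, and the 6 lower in cell 4 beside 6.9%. This condition favours abundant genes, which the mitochondrial RNAs are. Of the tRNAs, 5 reached a mean of 10 CPM, and 4 of them did so through 1 to 7 counts. Among them mt-Td alone had more, with a ratio of 3.43 in cell 3 (2.16 to 5.63) and 2.60 in cell 6 (1.25 to 4.87). In cells 1, 2, 4 and 5 its ratio was 0.293 (0.00734 to 1.67), 0.271 (0.0723 to 0.716), 0.207 (0.0742 to 0.468) and 0.324 (0.0656 to 0.975), past 2-fold lower in each. Over the 14 mRNAs and rRNAs, 26 of 84 pairs of a gene and a cell were past 2-fold in either direction, against 71.8% of all pairs tested. At 1.5-fold there were 48 against 83.1%, at 3-fold 6 against 61.2%, and with CPM computed without the members and their nuclear copies 33 at 2-fold against 72.9%. The median ratio over all genes tested was 0 in cells 1 and 6, where most of these genes had no count.

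The nuclear genes that transcribe, process and translate these RNAs had few counts. Of 8 transcription genes, 5 had a count in any cell and none in all, and the RNA polymerase Polrmt and the packaging factor Tfam had none. Transcription genes summed to 1, 2, 10, 4, 0 and 0 counts in cells 1 to 6, replication genes to 0, 0, 22, 4, 3 and 0, and rRNA modification genes to 0, 1, 9, 5, 0 and 0. RNA processing and decay genes, of which 15 of 18 were found, reached 464 to 799 CPM. The granule protein Grsf1 led them with a median of 206 CPM and 2, 6, 32, 11, 8 and 0 counts, followed by the helicase Supv3l1 at 46.7 CPM, Ptcd2 at 40.8 CPM and the exonuclease Rexo2 at 38.6 CPM. The mitochondrial translation factors summed to at most 232 CPM. Proteins of the mitochondrial ribosome, with 70 of 78 genes found, summed to 1393 CPM in cell 1 and to between 2135 and 2729 CPM in the other cells, and Mrps26, Mrpl42, Mrpl51 and Mrpl47 had the highest medians, from 65.7 to 102 CPM. With so few counts, no difference between cells is read from these lists.

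Nuclear subunits of the respiratory chain covered a narrower range of levels than the mitochondrial mRNAs. The 74 listed nuclear subunits of complexes I, III, IV and V summed to 15790.1, 16039, 14338, 13317, 15982 and 11514 CPM, while the 13 mitochondrial mRNAs summed to 104958, 72481, 53090.3, 30180, 57625 and 108742 CPM. The level was highest for the mitochondrial mRNAs in cells 1 and 6, whereas the nuclear subunits were lowest in cell 6. For every nuclear subunit count there were 9.44 mitochondrial mRNA counts in cell 6 (7.90 to 11.4) and 2.27 in cell 4 (2.09 to 2.46). Complexes I, III, IV and V sum 7, 1, 3 and 2 mitochondrial genes over 36, 9, 11 and 18 nuclear genes. Ratios of different complexes are therefore not on the same scale, and complex V had the lowest in each cell (0.952 to 3.46). By complex, the ratio in cell 6 was 20.7 for complex I (14.2 to 31.4) and 20.2 for complex III (10.8 to 42.8), but 7.14 for complex IV (5.18 to 10.1) and 3.46 for complex V (2.55 to 4.78). In cell 1 it was highest for complex IV, at 11.5 (7.81 to 17.6). These differences between complexes changed when nuclear copies were added to the mitochondrial counts, an alternative chosen after seeing the data. In cell 6 the ratio was then 27.4 for complex I (18.8 to 41.4), 18.1 for complex IV (13.3 to 25.2) and 7.98 for complex V (6.00 to 10.8). For complex III it stayed at 20.2, as nothing was added. Gm11410, a copy of mt-Cytb with 41 counts in cell 6, has no exact match of 50 bases. In cell 1 complex IV was then at 25.4 (17.4 to 38.5). The nuclear subunits with the highest median levels were Ndufv3 (372 CPM), Ndufc2 (327 CPM), Ndufa12 (209 CPM) and Ndufa5 (189.5 CPM) of complex I, and Uqcrh (258 CPM), Uqcrq (233 CPM), Uqcrc2 (167 CPM) and Uqcrc1 (151 CPM) of complex III. In complex IV they were Cox8a (582 CPM), Cox4i1 (512 CPM), Cox6c (487 CPM) and Cox6a1 (466 CPM), and in complex V they were Atp5b (542 CPM), Atp5a1 (507 CPM), Atp5c1 (404 CPM) and Atp5g3 (388 CPM).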

How the data were processed

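Raw counts per gene symbol for 6 cells were used as the authors deposited them, with 55341 genes and no column left unused. Alignment used read 2 alone, per the labels. CASAVA, Bowtie2 2.3.4 and HTSeq, with the build mm10, appear in the submitters' processing notes. Which annotation and strand setting were used, how multiply aligned reads were placed and whether molecular identifiers were collapsed were not given in the sources used here, so a count may be a molecule or a read, and intervals are too narrow if it is a read.

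All 55341 symbols matched GENCODE M21 (GRCm38, which mm10 names), the source of positions (1-based) and sequences. Nuclear copies were annotated transcripts with an exact match of 50 bases on either strand, found without a genome. Each was aligned locally to its best-matching mitochondrial gene (Biopython 1.88). CPM were computed over all genes. Intervals (95%) are exact Poisson, Clopper-Pearson or, for ratios, conditional binomial (SciPy 1.17.1). For a zero, a limit of 3 counts is given beside the interval. Fold calls used 2-fold against the pooled other 5 cells and a mean of 10 CPM. They were tried on simulated Poisson counts with planted changes, with the interval also leaving out 1. Such counts have only the spread that the intervals assume, and false calls were not measured.

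Named are the mRNAs, the rRNAs, tRNAs with at least 10 counts, the 10 copies with most counts and the top 4 members of the lists of nuclear mitochondrial genes. In lists with few counts fewer than 4 are named, and Polrmt, Tfam, Gm10222, Gm11410 and Gm43743 are named beyond this rule. Of the listed genes, Prorp was not matched. Members and lists were chosen with earlier results of these data known. Lists of mitophagy and of biogenesis regulators had 319 to 914 and 85.3 to 936 CPM. The alternatives added nuclear copies, left out members with copies or overlaps, scaled by length, changed totals, match lengths, folds and filters, and left out cells.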

Additional observations from a re-analysis of the deposited data

Results flagged for a closer look

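Of 58 sets of 6 values checked, 6 had a highest cell far from the other 5 by Dixon's limit for 6 values. Chance flags about 1 set in 20 where sets are independent and values follow a normal distribution. Many of these sets share counts, so 6 of 58 cannot be set against that rate. The mt-Nd6 share of subunit mRNA counts, which is also the minus strand share, was 0.0307% in cell 3, where its level was 16.3 CPM, and 0 in the other cells. The share, the minus strand share and the level of mt-Nd6 were flagged separately but rest on the same 2 counts in the deepest library. The level of mt-Rnr1 was 7686 CPM in cell 2 and between 1991 and 4064 CPM elsewhere. In cell 6 the ratio of mitochondrial to nuclear counts was 20.7 for complex I, against 3.35 to 7.81 in the other cells, and 20.2 for complex III, against 3.8 to 9.29. These ratios rest on 28 and 10 nuclear counts, and with nuclear copies added they were 27.4 and 20.2, against 4.02 to 10.2 and 3.8 to 9.29 in the other cells.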

How the results depend on the processing

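No paired analysis was possible because all cells form 1 group. The medians of 12 balances over the 6 cells gave 128 alternative values, of which 110 moved by less than the standard deviation over cells and 18 by more. Leaving out each cell in turn moved none of 162 values by more than that, but this outcome was fixed in advance. Dropping 1 cell can never move a median of 6 values beyond their standard deviation, and such values also make up most of the 110. With 1 cell left out, the mitochondrial share of all counts ranged from 7.62% to 11.7%. The tRNA share, 0.330% over all cells, was 0.175% without cell 3, 4 or 6 and 0.485% without cell 1, 2 or 5. With nuclear copies added, the mitochondrial share of all counts was 13.9%, and complexes I, III, IV and V took 32.3%, 8.17%, 42.7% and 17.5% of mRNA counts. With the 6 members left out whose 3' ends are mostly shared with nuclear copies, rRNAs took 40.8% and mRNAs 59.0% of mitochondrial counts, the rRNA to mRNA ratio was 0.693, and complexes I, III and V took 72.8%, 26.8% and 0.895%. These values follow from the genes left out, and complex IV had no member remaining. Per kilobase, tRNAs took 4.67%, and complexes I, III and V took 38.3%, 11.2% and 20.7%. Without mt-Atp8, mt-Atp6, mt-Nd4l, mt-Nd4, mt-Nd5 and mt-Nd6, the mRNAs in the longer overlaps of 7 to 43 bases (overlaps of 1 to 3 bases with other members were ignored), complexes I, III and IV took 33.3%, 20.2% and 46.2%, and complex V and the minus strand share could not be computed. Of 84 pairs of a member and a cell, 26 were past 2-fold, 48 past 1.5-fold and 6 past 3-fold, against 71.8%, 83.1% and 61.2% of all pairs. The cause of each shift was not tested beyond the construction of the alternative. Depth limits mt-Nd6, mt-Nd4l, mt-Atp8 and the tRNAs in cells 1 and 6, where 3 counts are 348 and 256 CPM.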

Other observations

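Other pseudogenes related to mitochondrial genes differed more sharply between cells. Gm11410 on chromosome 4 (80003989 to 80005131 in GRCm38), which aligned to mt-Cytb with 92.9% identity and shares with it an exact match of 30 but not of 50 bases, had 186, 50 and 41 counts in cells 3, 4 and 6, and 0, 0 and 2 in cells 1, 2 and 5. It and Gm43743 were named after their values were seen. For each mt-Cytb count there were 0.229 counts of Gm11410 in cell 3 (0.194 to 0.269), 0.239 in cell 4 (0.172 to 0.327) and 0.203 in cell 6 (0.141 to 0.285). The sequences near the 3' ends are shown, with capitals where they differ.
mt-Cytb, chrM:15228-15287: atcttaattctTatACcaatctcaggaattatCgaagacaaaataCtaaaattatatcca
Gm11410 (chromosome 4): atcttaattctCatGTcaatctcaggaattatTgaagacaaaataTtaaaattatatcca
Gm43743 on chromosome 3 (94334394 to 94335332), of which 116 aligned positions match mt-Atp6 with 94.8% identity, had 131, 68 and 53 counts in cells 3, 4 and 6, and 0, 5 and 3 in cells 1, 2 and 5. Cells 3, 4 and 6 were also the 3 lowest in gland and secretory markers (947, 624 and 0 CPM against 5105 to 20390 CPM). They were the 3 highest in the ratios of Gm13340 to mt-Co1 and of Gm13341 to mt-Co2, though not in that of Gm13339 to mt-Nd2. The labels name no batch, and the part of library preparation or of other cells' RNA in these differences was not tested.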
